A study of Mus musculus with 4 samples.

Results

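The genes that encode the proteins of the cytosolic ribosome were followed through single CD3+ CD8+ cells sorted from s.c. Myc-CaP tumors. Myc-CaP is a prostate cancer cell line from mice that carry a Myc transgene. Members were chosen by symbol (Rps or Rpl with a number and at most a closing letter, with Rplp0, Rplp1, Rplp2 and Rpsa), without kinases or pseudogenes, and had to hold at least 100 unique molecular identifiers (UMIs, counts of captured RNA molecules) over all libraries. Of 31053 genes in the matrices, 80 symbols matched and 77 reached the minimum, 31 of the small 40S subunit and 46 of the large 60S subunit. Rpl3l, Rpl10l and Rpl39l, which have narrow expression in striated muscle, testis or other tissues, fell below it.

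Tumors grew in male FVB mice. The mice were treated for 3 to 4 weeks with weekly i.p. injections of anti-PD-L1 antibody at 10 mg/kg (aPD-L1), of oxaliplatin, a platinum compound that damages DNA, at 6 mg/kg (Oxali) or of both (Combo), or were left untreated (Ctrl). Each group was 1 library made with a 3' kit, and the number of mice behind a library was not stated. The libraries held 1642, 1426, 1324 and 1116 barcodes (aPD-L1, Oxali, Combo and Ctrl) and between 5443036 and 6340015 UMIs. Of 5508 barcodes 4948 passed the filter on genes and mitochondrial UMIs, and no pair of libraries shared more than 1 barcode. Cells were clustered with all ribosomal protein genes left out, so that these genes did not choose the groups they are compared between. Of 17 clusters 8 were T-like (Cd3e, Trac, Cd8a and related markers), with 2969 cells and 11063465 UMIs. Of these T-like cells, 462 (15.6%) had 3 or more UMIs of the 12 macrophage markers as well. A heat shock led T-like cluster (Hspa1a, Dnajb1, Fos) held 66, 52 and 31 cells of aPD-L1, Oxali and Combo, against 338 cells of Ctrl, which were 50.5% of the T-like cells of that library.

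Ribosomal proteins are assembled with ribosomal RNA in the nucleolus in fixed proportions, so their mRNAs are usually made at similar rates. Many of these mRNAs begin with a short run of pyrimidines, the 5' terminal oligopyrimidine (TOP) motif, through which mTOR signaling and the RNA-binding protein Larp1 control their translation and stability. Resting T cells hold many of these transcripts, and Myc and mTOR raise ribosome production when a T cell is activated.

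Start sites of 6 members on which the results below turn are shown here because they differ in the pyrimidine run. Each line gives 15 bases before and 15 from a RefSeq transcription start (GRCm38.p6, 5′ to 3′ on the strand of the gene), with a run of at least 7 C or T that reaches within 5 bases of the start in capitals. Where a symbol had several starts, the start with the longest run was taken, both for these lines and for the counts below.
Rps27 (chr3:90213634-90213663, minus strand): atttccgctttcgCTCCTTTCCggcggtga
Rps24 (chr14:24490663-24490692, plus strand): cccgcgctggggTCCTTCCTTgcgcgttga
Rpl7a (chr2:26910792-26910821, plus strand): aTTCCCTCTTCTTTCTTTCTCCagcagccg
Rpl28 (chr7:4792950-4792979, plus strand): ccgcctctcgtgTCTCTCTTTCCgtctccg
Rps27l (chr9:66946071-66946100, plus strand): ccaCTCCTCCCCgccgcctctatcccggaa
Rps2 (chr17:24720048-24720077, plus strand): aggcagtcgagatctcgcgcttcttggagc
The longest run was 21 bases in Rpl7a and 6 in Rps2, too short to be marked. Of the 77 members 57 had an entry, and 27 of these (47.4%) held such a run, against 4421 of all 27025 symbols in the table (16.4%). By this definition a run can end before the start, as that of Rps27l does. The other marked runs above span the start. A run is a description of the letters near an annotated start, not a measured TOP motif.

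Ribosomal protein transcripts were 31.0% of all UMIs of T-like cells. The 40S members gave 46.6% of this pool and the 60S members 53.4%. Levels are given as CPM, in which the UMIs of each group of cells are scaled to the same total, and as 3' tags they are not scaled to gene length. The most abundant members were Rps24 (12182.9 CPM), Rpl13 (9756.1 CPM), Rpsa, the 40S protein also known as the laminin receptor precursor (8669.1 CPM), Rps16 (7677.3 CPM) and Rpl19 (7476.5 CPM), and together they made up 14.7% of the pool. The median member stood at 3351.7 CPM, and 70 of 77 were over 1000 CPM. At the low end were Rps27l, a paralog of Rps27 known as a p53 target (136.8 CPM), and Rpl29, a 60S protein that mice can live without (126.3 CPM). Reads of paralogs and processed pseudogenes can be split or lost in counting, so levels between members are uncertain; 9 pseudogene symbols of these families held 0.0331% of T-like UMIs. Ribosomal protein genes outside the symbol rule were of the same order: Fau, the fusion that encodes eS30, stood at 8105.1 CPM and Rps3a1, which encodes eS1, at 6804.2 CPM.

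The share of UMIs in ribosomal protein genes separated the T states. For aPD-L1, Oxali, Combo and Ctrl it was 20.3%, 22.9%, 22.3% and 23.3% in effector-like cells, a cluster led by the cytotoxic genes Gzma and Gzmb with Ccl5, Klre1 and Zeb2. For naive-like cells, led by Dapl1, Igfbp4, Lef1 and Ccr7, genes of quiescent T cells that home to lymph nodes, it was 41.5%, 41.0%, 40.6% and 41.8% in the same order. The effector-like and naive-like values did not overlap, and their difference was -19.0 ± 1.47 percentage points (SD, n = 4 libraries). Dividing cells, led by Nusap1, Cenpf, Ube2c and Birc5, had 24.6%, 26.7%, 21.6% and 25.4%. They too lay below every naive-like value, by -16.6 ± 1.89 points (SD, n = 4). Dividing and effector-like values overlapped, with a difference of 2.38 ± 2.23 points (SD, n = 4) that was positive in aPD-L1, Oxali and Ctrl and -0.675 in Combo. The smallest sum was that of effector-like cells in Ctrl, with 20 cells and an exact 95% interval of 22.9% to 23.6%, which covers counting error only.

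**Figure D1:**
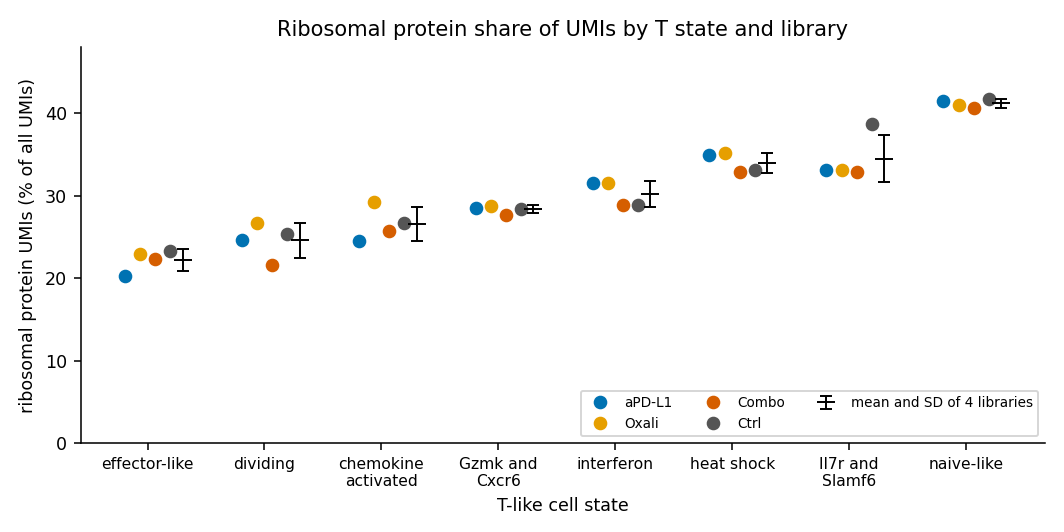
Ribosomal protein UMIs as a percentage of all UMIs (vertical axis) in the 8 T-like clusters (horizontal axis), with a point for each library and the mean and SD of 4 libraries as a bar. Effector-like cells sit between 20.3% and 23.3% and naive-like cells between 40.6% and 41.8%.

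The other T-like clusters fell between these states. The chemokine activated cluster (Xcl1, Ccl1, Ccl3) had 26.6 ± 2.04%, the cluster led by Gzmk and Cxcr6 28.4 ± 0.465%, the interferon cluster (Ifit1, Ifit3, Rsad2) 30.2 ± 1.56%, the heat shock led cluster 34.0 ± 1.19% and the cluster led by Il7r, Nt5e and Slamf6 34.5 ± 2.83% (SD, n = 4 libraries each). Over single cells, effector-like and dividing cells overlapped widely and both lay apart from naive-like cells at the quartiles. The quartiles over cells were 17.5% and 23.3% in effector-like cells, 19.3% and 26.4% in dividing cells and 37.9% and 44.9% in naive-like cells. Mitochondrial UMIs ranged over libraries from 2.29% to 4.62%, 2.71% to 3.85% and 3.56% to 5.08% in the same states. With mitochondrial and heat shock genes taken out of the total, the shares were 20.9% to 24.5% in effector-like cells, 22.2% to 27.5% in dividing cells and 42.1% to 44.3% in naive-like cells.

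Share and amount per cell did not order the states alike. The median effector-like cell held 302.5, 353, 400.5 and 518 ribosomal protein UMIs in aPD-L1, Oxali, Combo and Ctrl, the median dividing cell 1842.5, 2753.5, 2031 and 1542.5, and the median naive-like cell 1095, 1085, 939.5 and 1010.5. Dividing cells thus held the most of these transcripts in every library although their share was low. Their ratio to naive-like cells was 1.53 to 2.54, while effector-like cells stood at 0.276 to 0.513 of the naive-like amount. The pooled median of all UMIs per cell was 1754 in effector-like, 9029 in dividing and 2498.5 in naive-like cells. UMIs per cell depend on capture as well as on RNA content, and these cannot be told apart here.

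**Figure D2:**
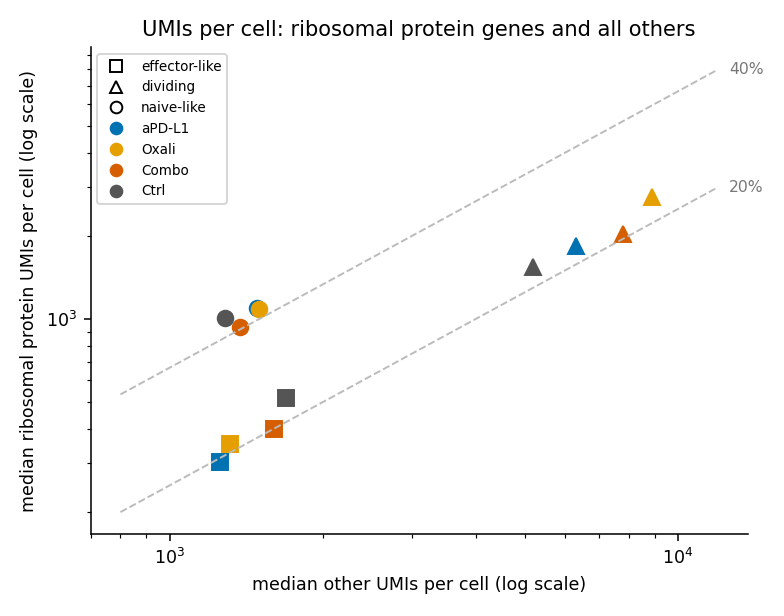
Median ribosomal protein UMIs per cell (vertical axis, log scale) against median other UMIs per cell (horizontal axis, log scale) for effector-like, dividing and naive-like cells of each library; dashed lines mark shares of 20% and 40%. Dividing cells lie highest on both axes but near the lower line, and naive-like cells lie near the upper line.

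Depth and other cells moved with some of these values. Among effector-like cells, the deeper cells of each library had shares 3.65 to 6.17 points higher than the shallower ones. The same difference was 2.46, 4.56, -0.406 and 5.30 points among dividing cells of aPD-L1, Oxali, Combo and Ctrl, against -0.429 to 1.02 points among naive-like cells. UMIs of the 12 macrophage markers summed to 161.0 to 253.4 CPM in effector-like cells, where 10 of 12 were seen and Adgre1 and Cd14 were at 0, to 382.7 to 1096.5 in dividing cells and to 154.3 to 286.7 in naive-like cells, where 12 of 12 were seen. The part of depth and of macrophage transcripts in the differences was not tested.

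Nearly the whole family was lower in effector-like than in naive-like cells. In sums per state and library, tested with edgeR (quasi-likelihood, library as a term, Benjamini-Hochberg adjustment over 4429 genes), 75 of 77 members were lower, against a background of 9.57% of all genes tested, and 1 was higher, against 8.72%. The median member had a log2 ratio of -1.22, a fold of 0.429, where the median of all genes was -0.01. The decile range was -1.52 to -0.78, and the 40S median of -1.29 lay below the 60S median of -1.18. The clusters were made from the other genes, so the background is partly set by the clustering. The size of the fall depends on the scaling. With total UMIs as library size the median member lay at -0.85 here and at -0.72 for dividing over naive-like cells. The medians of all genes were then 0.36 and 0.37, and 71 and 67 members were lower.

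Members at the ends of this range show how far the family moved together. Rps20, a 40S protein, had 3138.2, 3923.3, 3788.5 and 3615.4 CPM in effector-like cells of aPD-L1, Oxali, Combo and Ctrl, against 10874.7, 10841.9, 10830.1 and 9672.5 CPM in naive-like cells. Every effector-like value lay below every naive-like one (log2 ratio -1.92 ± 0.09 SE, edgeR adjusted p = 2.49e-33). Rpl29 had 155.7, 152.1, 107.3 and 139.8 CPM in effector-like cells, against 137.9, 130.0, 162.1 and 132.3 CPM in naive-like cells, and its ranges overlapped (-0.33 ± 0.23, adjusted p = 0.370). It was the member that passed in neither direction. Rps27l, the member that was higher (0.85 ± 0.31, adjusted p = 0.0410), had 106.5, 71.0, 171.7 and 59.9 CPM in effector-like cells, against 45.4, 61.5, 37.4 and 22.0 CPM in naive-like cells. Its sums held only 3 to 16 UMIs in effector-like cells, the ranges overlapped slightly, and no member was called higher in 11 of 17 alternatives, among them DESeq2, no filter on low counts, no library term, thinning and leaving out aPD-L1, Combo or Ctrl.

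To see which members departed from the rest, each gene was also tested relative to the pool, with the summed UMIs of the 77 members as library size. On this scale 19 members were higher and 13 lower in effector-like than in naive-like cells. Of all genes tested 70.4% were higher and 1.2% lower, a background that reflects the fall of the pool itself. Most members stayed close to the pool, 56 of 77 within 1.2-fold. The departures were divided by subunit: 16 of 46 members of the 60S were higher and 5 lower, and 3 of 31 members of the 40S were higher and 8 lower. The other 25 members of the 60S and 20 of the 40S did not pass. The 40S share of the pool was 45.4%, 45.0%, 45.8% and 45.2% in effector-like cells of aPD-L1, Oxali, Combo and Ctrl, against 47.6%, 47.9%, 47.6% and 47.4% in naive-like cells, without overlap. Abundant members weigh most in this share. Rps24 had 37.4, 37.7, 32.3 and 31.6 per 1000 ribosomal protein UMIs in effector-like cells, against 43.7, 47.2, 46.1 and 41.6 in naive-like cells. Rps20, given below, also fell. The 40S share without Rps24 and Rps20 was not computed, so a shift of the whole subunit is not shown.

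Highest relative to the pool were Rps27l (log2 ratio to the pool 2.09 ± 0.34 SE), Rpl29 (0.92 ± 0.26), Rpl27 (0.88 ± 0.15) and Rpl7a, a 60S protein (0.77 ± 0.09). Per 1000 ribosomal protein UMIs, Rpl7a had 8.38, 7.70, 7.94 and 7.47 in effector-like cells of aPD-L1, Oxali, Combo and Ctrl, against 4.67, 4.32, 5.30 and 4.25 in naive-like cells. In CPM the Rpl7a levels were 1704.3 to 1770.8 in effector-like cells, against 1772.2 to 2151.1 in naive-like cells, and it was among the members called lower (log2 ratio -0.50 ± 0.10, edgeR adjusted p = 0.000102), by less than the median member. Rpl41, which encodes a very short basic peptide of the 60S, departed in the same way (0.72 ± 0.08), as did Rpl13a and Rpl24.

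Lowest relative to the pool were Rps20 (-0.66 ± 0.06), Rpl36a (-0.59 ± 0.12), Rps19, the gene most often mutated in human Diamond-Blackfan anemia (-0.57 ± 0.08), and Rps28 (-0.56 ± 0.11). Rps20 had 15.4, 17.1, 17.0 and 15.5 per 1000 ribosomal protein UMIs in effector-like cells, against 26.2, 26.4, 26.7 and 23.2 in naive-like cells. Rpl36al, the intronless paralog of Rpl36a outside the symbol rule, went the other way (0.63 ± 0.20, adjusted p = 0.00509). The call of Rpl29 was lost with marker gates (0.18), with a stricter cell filter (0.60) and after thinning to 1500 UMIs (0.52).

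**Figure D3:**
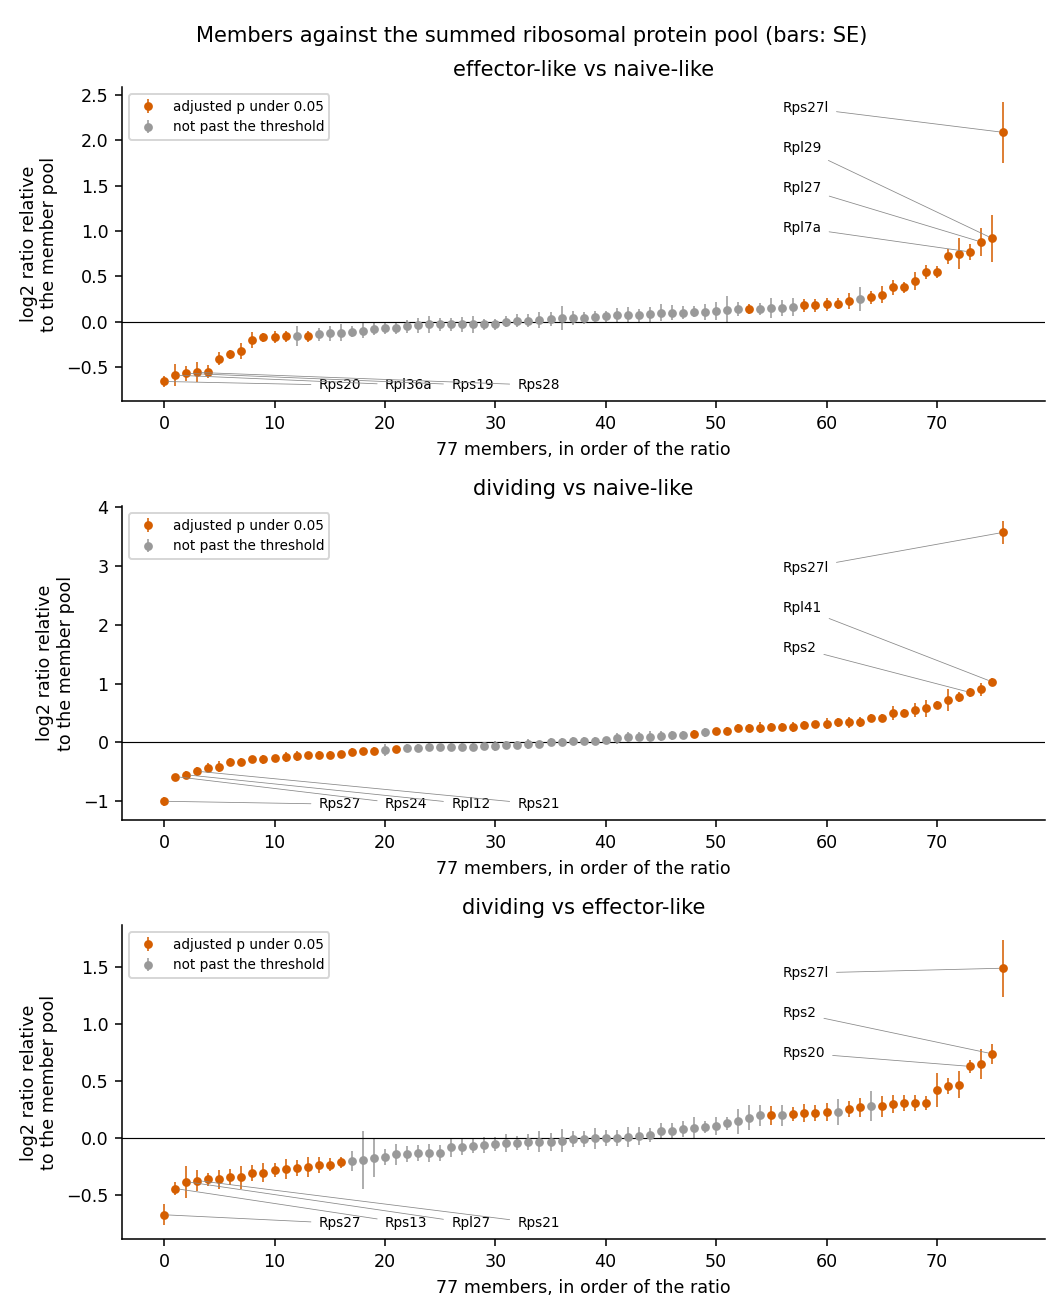
Log2 ratio of each of the 77 members relative to the summed pool (vertical axis; bars are SE) in order of the ratio (horizontal axis), for effector-like vs naive-like, dividing vs naive-like and dividing vs effector-like cells. Colored points passed the edgeR threshold (19 higher and 13 lower, 28 and 21, and 19 and 17), and most of the members named in the text are marked; Rps27l lies far above the rest in dividing vs naive-like cells, at 3.57.

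Dividing cells were compared with the same naive-like sums. Again 74 members were lower, against 26.1% of all genes tested, and 1 was higher, against 27.0%. The median log2 ratio was -1.09 (fold 0.469), beside 0.00 for all genes, and the decile range of -1.43 to -0.56 was wider than for effector-like cells. Rpl41 was among the members that passed in neither direction (-0.09 ± 0.09, edgeR adjusted p = 0.394). Its CPM, which use total UMIs where the fitted ratio uses TMM-scaled library sizes, were higher in dividing cells of every library. It had 3539.2, 4847.2, 3396.2 and 3728.8 CPM in dividing cells of aPD-L1, Oxali, Combo and Ctrl, against 2971.7, 3553.6, 3005.2 and 3143.3 CPM in naive-like cells.

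Rps27l rose in dividing cells (2.48 ± 0.18, edgeR adjusted p = 3.26e-21). It had 296.2, 388.6, 312.0 and 314.3 CPM in dividing cells, against 45.4, 61.5, 37.4 and 22.0 CPM in naive-like cells, and the 4 dividing sums held 125 to 202 UMIs each. Every dividing value lay above every naive-like and every effector-like value. Rps27, its paralog on chromosome 3, did the opposite, with 1147.1, 1501.0, 1028.6 and 1898.3 CPM in dividing cells, against 4097.5, 4637.6, 3865.7 and 5833.1 CPM in naive-like cells (-2.12 ± 0.09, adjusted p = 1.34e-35). Both genes encode nearly the same small zinc-finger protein, and reads that fit both can be lost in counting.

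Relative to the pool, 28 members were higher in dividing than in naive-like cells and 21 lower (74.7% and 3.57% of all genes tested), and 47 of 77 stayed within 1.2-fold. Rps27l (3.57 ± 0.20), Rpl41 (1.03 ± 0.07) and Rps2 (0.85 ± 0.08) were among the highest, and Rpl28, a 60S protein, stood at 0.64 ± 0.07. Rps2, a 40S protein near the mRNA entry, had 11.0, 12.1, 11.0 and 8.39 per 1000 ribosomal protein UMIs in dividing cells, against 6.14, 5.82, 7.07 and 4.64 in naive-like cells. Rps27 (-1.0 ± 0.08), Rps24 (-0.58 ± 0.05), Rpl12, at the base of the ribosomal stalk (-0.55 ± 0.07), and Rps21 (-0.49 ± 0.08) were lowest. Rps24, the most abundant member, had 30.3, 30.3, 31.8 and 27.4 per 1000 in dividing cells, against 43.7, 47.2, 46.1 and 41.6 in naive-like cells. By subunit, 20 of the 60S members were higher and 10 lower, and 8 of the 40S members were higher and 11 lower.

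Because effector-like and dividing cells were set against the same naive-like sums, the values are given side by side and their likeness is not a separate result. Rpl7a stood at 0.77 ± 0.09 in effector-like and 0.77 ± 0.08 in dividing cells relative to the pool, and Rps24 at -0.36 ± 0.05 and -0.58 ± 0.05. Rps20 differed, at -0.66 ± 0.06 in effector-like and -0.03 ± 0.06 in dividing cells, as did Rpl19, at 0.20 ± 0.06 and -0.16 ± 0.06. Rpl22, which mouse αβ T cells need in development, did not depart from the pool in either (0.10 ± 0.09 and 0.12 ± 0.08), while its paralog Rpl22l1 was higher in both (0.33 ± 0.13 and 0.41 ± 0.11). Fau was higher in effector-like cells (0.43 ± 0.06) and not in dividing cells (-0.04 ± 0.06). Rps3a1 did not pass in either (0.09 ± 0.06 and 0.04 ± 0.06).

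Dividing and effector-like cells were compared directly. Here 28 members were higher and 3 lower, against 13.7% and 11.1% of all genes tested, with a median log2 ratio of 0.14 beside -0.01. Rps27, Rps13 and Rpl19 were the lower members. The count of 31 was 53 with no filter on low counts, 12 with a stricter cell filter and 20 without aPD-L1, and the split of 28 higher and 3 lower was 14 and 12 after thinning to 1500 UMIs and 23 and 15 at a finer clustering.

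Relative to the pool 19 members were higher in dividing than in effector-like cells and 17 lower (9.60% and 14.5% of all genes tested). Rps27l (1.49 ± 0.25), Rps2 (0.74 ± 0.09) and Rps20 (0.63 ± 0.06) were among the highest. Rps20 had 26.3, 25.9, 24.9 and 23.3 per 1000 ribosomal protein UMIs in dividing cells of aPD-L1, Oxali, Combo and Ctrl, against 15.4, 17.1, 17.0 and 15.5 in effector-like cells. The values of Rps20 did not overlap between the states. Rps27 (-0.67 ± 0.09), Rps13 (-0.44 ± 0.06), Rpl27 (-0.38 ± 0.14) and Rps21 (-0.37 ± 0.09) were lowest. Rps27 had 4.66, 5.63, 4.76 and 7.46 per 1000 in dividing cells, against 8.66, 9.34, 6.69 and 10.9 in effector-like cells. The Rpl27 call was lost in 11 alternatives. The count of 36 departing members was 21 without the library term and 14 with the stricter cell filter.

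Genes around the ribosome were read from fixed lists. Of 18 tested TOP-type translation genes (elongation and initiation factors and others translated like ribosomal proteins), 12 were lower and 0 higher in effector-like than in naive-like cells by edgeR, where 9.57% of all genes were lower and 8.72% higher, with a median of -0.52 beside -0.01 for all genes. Among them were Eef1b2, an elongation factor subunit (-1.36 ± 0.10, adjusted p = 5.97e-20), Tpt1 (-1.31 ± 0.07) and Rack1, which sits on the 40S subunit (-1.05 ± 0.10). Of 26 tested ribosome biogenesis genes, 5 were lower and 0 higher, among them Fbl, the rRNA methyltransferase (-1.48 ± 0.26), Gnl3 (-1.34 ± 0.35) and Npm1, a nucleolar chaperone (-1.08 ± 0.12). Mitochondrial ribosomal protein genes did not follow: of 69 tested, 2 were higher and 2 lower, with a median of -0.02. Wherever a list is given with 0 in a direction here and below, the count was also 0 at an unadjusted p under 0.05 and with DESeq2.

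In dividing over naive-like cells 27.0% of all genes were higher and 26.1% lower, and the lists are read against these shares. TOP-type genes were lower in 13 of 18 and higher in 3, with Nap1l1, a histone chaperone, at 1.58 ± 0.14 and Tpt1 at -1.54 ± 0.07. Biogenesis genes were higher in 5 of 26 and lower in 3, both below the shares of all genes (1 and 2 with DESeq2), with Nhp2, an snoRNP protein, at 0.82 ± 0.16 and Gnl3 at -0.88 ± 0.21. Mitochondrial ribosomal protein genes were higher in 32 of 69 and lower in 6 (median 0.47 beside 0.00, and 22 and 2 with DESeq2), with Mrpl27 at 1.76 ± 0.27 and Mrpl40 at 1.43 ± 0.22. In dividing over effector-like cells, where 13.7% of all genes were higher, biogenesis genes were higher in 8 of 26 and lower in 0, among them Nop58 (1.34 ± 0.32) and Dkc1 (1.24 ± 0.36), and mitochondrial ones were higher in 17 of 69 and lower in 0. With DESeq2 only 7 mitochondrial ones were higher, near the share of all genes, of which 437 of 4429 were higher by that test. Only 5 of 13 Myc and mTOR genes had enough UMIs for these tests, and 0 were higher in any of them. In effector-like over naive-like cells 1 was lower, in dividing over naive-like cells 3 and in dividing over effector-like cells 1. The shares of all genes lower were 9.57%, 26.1% and 11.1%, and with DESeq2 the counts were 0, 1 and 1. Eif4ebp2, a translation repressor under mTOR, was lower than in naive-like cells in effector-like (-0.94 ± 0.30, a call lost with DESeq2) and in dividing cells (-0.99 ± 0.20). Larp1 was lower in dividing than in naive-like cells (-0.74 ± 0.23, a call lost with DESeq2). Maf1 was lower in dividing than in naive-like (-0.52 ± 0.20) and effector-like cells (-0.93 ± 0.28).

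By class of cell, the summed T-like barcodes stood above the macrophage-like ones, although effector-like cells alone, at 20.3% to 23.3%, lay within the macrophage-like range. The share was 23.3%, 22.6%, 19.2% and 23.7% in macrophage-like barcodes of aPD-L1, Oxali, Combo and Ctrl, against 31.5%, 33.5%, 27.3% and 32.1% in T-like barcodes, without overlap. T marker UMIs, 3 or more of them, were present in 90.2% of the macrophage-like barcodes. A dendritic-like cluster led by Siglech had 21.8 ± 1.22% (SD, n = 4), and a smaller one of 32 cells led by Fscn1 and Ccl22 had 20.5% over all its UMIs. NK-like cells (Ncr1, Klra7) had 30.1 ± 1.19% over 3 libraries, and CD4 T-like cells (Foxp3, Il2ra) 24.3% over all their UMIs. A cluster of 67 cells with Krt7 and Cldn3, whose score for epithelial tumor markers of 2.47 was below that for fibroblast markers of 2.98, had 24.9%. Among unnamed clusters, that with Gzmm and Trdc had 39.2 ± 0.668%, that with Gzmd and Mmp12 29.9 ± 2.41% and that with Il17a 27.9 ± 0.943%. T marker UMIs, 3 or more of them, were present in 97.4% of the Gzmd and Mmp12 barcodes. The part was larger in the Gzmm and Il17a clusters, so the unnamed clusters may hold T cells that the T-like set leaves out. The Gzmm and Trdc cluster, at 38.3% to 39.8% over libraries, lay just below naive-like cells, at 40.6% to 41.8%.

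In macrophage-like over T-like sums, 75 members were lower and 1 higher (17.2% and 19.5% of 9032 genes tested), with a median log2 ratio of -0.52 beside -0.04. The higher member was again Rps27l (0.91 ± 0.12, edgeR adjusted p = 2.53e-07). Over summed cells Rps27l stood at 255.7 CPM in macrophage-like, 1096.7 CPM in the Fscn1 led dendritic-like, 622.4 CPM in the Krt7 cluster and 136.8 CPM in T-like cells. Relative to the pool 15 members were higher and 8 lower (50.4% and 2.64% of all genes), Rps26 lowest (-0.37 ± 0.07) and Rpsa next (-0.21 ± 0.05). The count of 23 was 8 with DESeq2, 3 without the library term, 14 after thinning and 13 without Oxali. Of 18 TOP-type genes 17 were lower and 0 higher (12 lower with DESeq2). Of 39 biogenesis genes 8 were lower and 0 higher (3 lower with DESeq2), near the 17.2% of all genes that were lower, and Eif4ebp1, a translation repressor under mTOR, was higher (2.61 ± 0.14).

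Treatments were compared between single libraries, so that these values have no replicate check and carry exact 95% intervals for counting error only. The share of these genes over all T-like UMIs was 31.5%, 33.5% and 27.3% for aPD-L1, Oxali and Combo, against 32.1% for Ctrl. The Combo interval was 27.3% to 27.4% and that of Ctrl 32.0% to 32.1%. Without the heat shock led cluster the differences of aPD-L1, Oxali and Combo from Ctrl were 0.219, 2.34 and -3.88 points, against -0.547, 1.40 and -4.73 points with it. Naive-like cells made up 25.4%, 36.3% and 8.62% of T-like cells in aPD-L1, Oxali and Combo, against 17.6% in Ctrl. With equal weight for the 8 clusters the shares were 29.9%, 31.1% and 29.1%, against 30.8% in Ctrl, and the difference of Combo from Ctrl shrank to -1.72 points, against -4.73 points over all T-like cells. Within clusters aPD-L1 was below Ctrl in 5 of 8 (median -0.511 points, range -5.63 to 2.71), Oxali in 3 of 8 (median 0.773, range -5.61 to 2.71) and Combo in 7 of 8 (median -1.0, range -5.79 to 0.0103). The Oxali difference was negative in naive-like cells (-0.747 points) and in effector-like cells (-0.354 points).

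**Figure D4:**
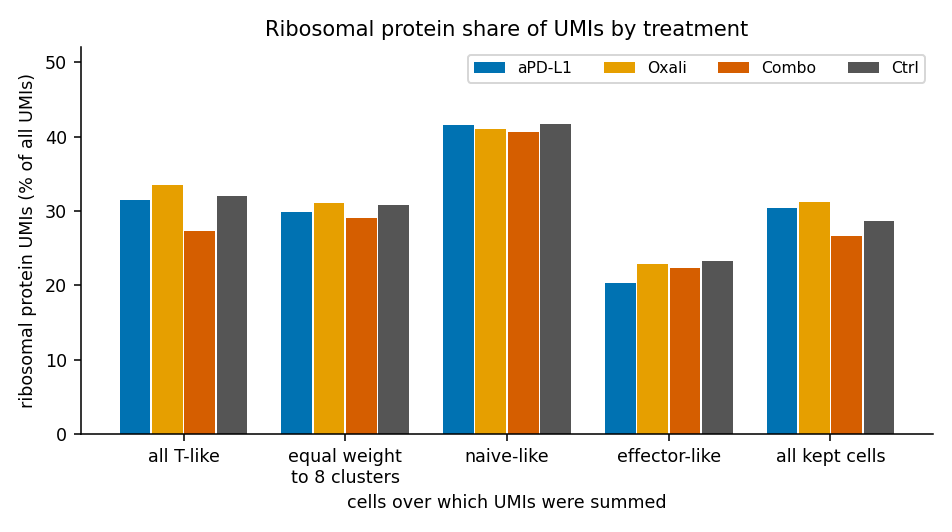
Ribosomal protein UMIs as a percentage of all UMIs (vertical axis) over all T-like cells, at equal weight for 8 clusters, in naive-like and effector-like cells alone, and over all kept cells (horizontal axis), with a bar for each library. Combo is lowest over all T-like cells at 27.3%, and the bars of naive-like cells lie between 40.6% and 41.8%.

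Members past 1.2-fold were counted beside all genes. In Combo over Ctrl 2 members were higher and 27 lower, against 36.0% and 12.1% of 5346 genes. In aPD-L1 over Ctrl 1 was higher and 9 lower (21.0% and 12.8%), and in Oxali over Ctrl 6 were higher and 4 lower (16.2% and 15.3%). Combo had 1 higher and 15 lower over aPD-L1 (21.7% and 8.53%) and 1 higher and 41 lower over Oxali (30.5% and 9.91%). The median log2 ratio over Ctrl of members was -0.03, 0.07 and -0.21 for aPD-L1, Oxali and Combo, beside 0.07, 0.03 and 0.15 for all genes. The count for Combo of 29 over Ctrl was 16 in naive-like cells alone, 3 higher and 13 lower against 36.2% and 19.1% of 987 genes, and 8 at 1.5-fold, 1 higher and 7 lower against 7.93% and 3.91%.

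Relative to the pool, 8 members were higher and 10 lower in Combo over Ctrl (64.6% and 5.29% of genes), 1 and 6 in aPD-L1 (23.9% and 11.3%) and 1 and 9 in Oxali (11.3% and 19.8%). These counts were below the share of all genes in each case except the lower members of Combo. Single members still had counting intervals away from 1. Rpl4, a 60S protein that lines the exit tunnel, had 1233.7, 1247.9 and 1155.9 CPM in T-like cells of aPD-L1, Oxali and Combo, against 1846.1 CPM in Ctrl. Its ratio to the pool relative to Ctrl was 0.680 [0.651, 0.710], 0.648 [0.620, 0.677] and 0.735 [0.702, 0.768] in the same order. Rps27 stood at 0.711, 0.835 and 0.655 of its Ctrl ratio, Rps6, the S6 kinase substrate, at 0.787, 0.685 and 0.743, and Rps29 at 0.709, 0.872 and 0.678. Rps2 was higher, at 1.29 [1.24, 1.34], 1.21 [1.17, 1.26] and 1.45 [1.40, 1.51].

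The same members stood apart within naive-like cells, where the pool share hardly differed. Rpl4 had ratios to the pool of 0.647 [0.587, 0.713], 0.608 [0.554, 0.667] and 0.726 [0.628, 0.837] there in aPD-L1, Oxali and Combo over Ctrl, and Rps2 had 1.32 [1.21, 1.46], 1.25 [1.15, 1.38] and 1.52 [1.35, 1.72]. Rps26 was higher by 1.18 [1.14, 1.22] in Combo over all T-like cells but not in its naive-like cells (0.975 [0.872, 1.09]). Rps27l had 126.8, 133.6 and 171.6 CPM in T-like cells of aPD-L1, Oxali and Combo, against 112.5 CPM in Ctrl, and its Combo ratio to the pool was 1.79 [1.54, 2.08]. In naive-like cells of Combo it held 6 UMIs, against 7 in Ctrl, too few to place it (1.75 [0.485, 6.07]). Within dividing cells Rps27l had 312.0 CPM in Combo, against 314.3 CPM in Ctrl (1.44 and 1.24 per 1000 ribosomal protein UMIs). Within effector-like cells it had 171.7 CPM in Combo, against 59.9 CPM in Ctrl, from 16 and 3 UMIs. Dividing cells were 9.66% of T-like cells in Combo, against 6.88% in Ctrl. The part of this difference in the Rps27l ratio was not tested.

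The pattern that set Ctrl apart extended to clusters that were not named T-like. Most barcodes of those clusters held 3 or more T marker UMIs. They were 83.9% of the Siglech led dendritic-like barcodes, 90.2% of the macrophage-like ones and a larger part of the 3 unnamed clusters. Whether the pattern holds in cells without T-cell RNA was not tested. In 13 groups of cells with counts in every library (8 T-like clusters, macrophage-like, the Siglech led dendritic-like and 3 unnamed clusters), Rpl4, Rpl17, Rps6, Rps19 and Rps27 were highest in Ctrl relative to the pool in 13 of 13, and Rpl18 and Rps27a, which is made as a fusion with ubiquitin, were lowest in Ctrl in 13 of 13. In at least 10 groups, 3 members were highest and 3 lowest in aPD-L1, 6 and 2 in Oxali, and 2 and 0 in Combo, against 16 and 13 in Ctrl. The same counts were not made over all genes, so whether the pattern is particular to these members was not tested. The 13 groups come from the same libraries and are not independent of each other. The median ratio of the treated libraries to Ctrl over these groups was 0.691 for Rpl4, 0.755 for Rps27, 0.761 for Rps6, 0.789 for Rps29, 1.27 for Rps2 and 1.15 for Rpl18. Since Ctrl is a single library, a difference between libraries and an effect of leaving tumors untreated cannot be told apart.

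**Figure D5:**
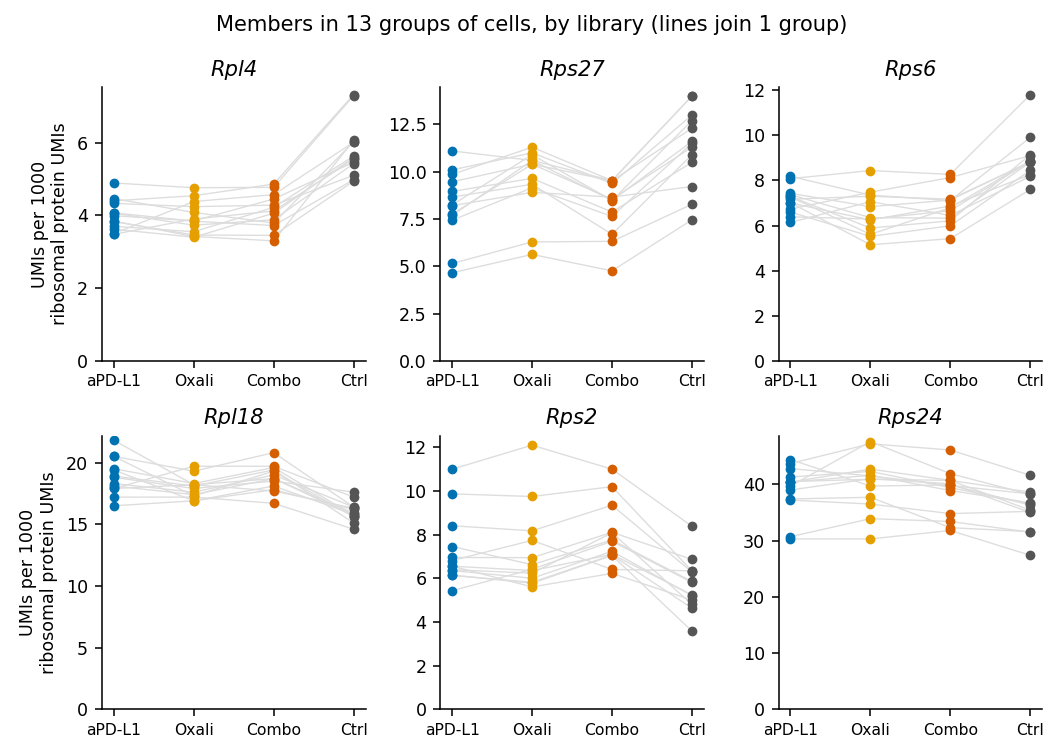
UMIs per 1000 ribosomal protein UMIs (vertical axis) of Rpl4, Rps27, Rps6, Rpl18, Rps2 and Rps24 in aPD-L1, Oxali, Combo and Ctrl (horizontal axis), a point and a connecting line for each of 13 groups of cells. The lines of Rpl4, Rps27 and Rps6 end highest at Ctrl in 13 of 13 groups and those of Rpl18 lowest in 13 of 13.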

How the data were processed

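Single-cell RNA-seq of CD3+ CD8+ cells from Myc-CaP tumors gave 4 libraries, 1 per group. Per the labels, the authors used Cell Ranger 3.1.0 with mm10, and they deposited raw UMI counts per gene and barcode, with no normalization. Gene positions came from GENCODE M21, and start sites from RefSeq. Barcodes were kept from 500 genes upwards if mitochondrial UMIs did not exceed 10%. After scaling of each cell to 10000 and a log transform, 2000 variable genes without ribosomal protein genes, 30 principal components and 15 neighbors gave Leiden clusters at resolution 1 (scanpy 1.11.5, igraph 0.11.9, anndata 0.12.19, matplotlib 3.10.9, pandas 2.3.3, scipy 1.17.1, numpy 2.4.6, Python 3.11.15). Clusters were named from marker lists by mean log2 fold, and stayed unnamed where leading genes belonged to another class. Scrublet marked 23 cells (0.465%), too few to count as a working call, and doublets were not removed. T-like depth was 2932726, 2746116, 2860872 and 2523751 UMIs in aPD-L1, Oxali, Combo and Ctrl.

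UMIs were summed per state and library, and tested with edgeR 4.0.16 (quasi-likelihood, filterByExpr, TMM, library as a block because sums of a library share their source; R 4.3.3, limma 3.58.1), with DESeq2 1.42.0 as an alternative. A call needed an adjusted p under 0.05. With library as a block, p-values measure how the differences inside libraries vary over 4 libraries that also differ in treatment. Steps were tested on simulated data. Treatment ratios were taken over genes with at least 200 UMIs. Named members were, for each state contrast, the 4 highest and 4 lowest relative to the pool that passed, moved alike in 4 libraries and held at least 500 UMIs, then the 5 most abundant, the 2 highest and 2 lowest per treatment, Rps27l, Rpl22 and close symbols outside the rule (Rpl22l1, Rpl36al, Rps3a1 and Fau), and up to 3 genes per companion list. Rpl13a, Rpl17, Rpl24, Rpl28, Rps27a and the members named in macrophage-like cells were named after their values were seen. Some members chosen by this rule are not reported here. Members and lists were chosen with earlier results of these data known.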

Additional observations from a re-analysis of the deposited data

Results flagged for a closer look

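In the T-like cluster led by Il7r, Nt5e and Slamf6, the ribosomal protein share of Ctrl stood apart from the other libraries. It was 33.1%, 33.1% and 32.9% for aPD-L1, Oxali and Combo, against 38.7% for Ctrl, where the cluster held only 14 cells. Of 14 groups checked for a library far from the others 1 was marked, and chance marks about 1 in 20. Rpl39l, a paralog of Rpl39 below the minimum for membership, held 46 UMIs over all kept cells, 5 in 5 cells of aPD-L1, 8 in 3 cells of Oxali, 19 in 10 cells of Combo and 14 in 12 cells of Ctrl. Of these, 10 came from 2 dividing cells of Combo and 5 from 1 dividing cell of Oxali, and no library's naive-like or effector-like cells held any.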

How the results depend on the processing

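Of 359 alternative values of the 24 named ratios to the pool, 344 kept their direction and call, 15 lost the call (11 of Rpl27 and 1 of Rps21 in dividing over effector-like cells, 3 of Rpl29) and 0 reversed. These ratios were chosen as the most extreme that passed the main fit and moved alike in 4 libraries. The alternatives draw on the same libraries, so the choice itself made reversals unlikely, and their absence is no independent check. Members called in dividing over effector-like cells numbered 31, but 53 with no filter on low counts, 12 with a stricter cell filter (at least 1000 genes, at most 5% mitochondrial UMIs) and 20 to 40 when each library was left out; those departing from the pool numbered 36, but 14 with the stricter filter. Library was a block in these fits, and without this pairing the count of departing members was 21 in dividing over effector-like cells and 3 (in place of 23) in macrophage-like over T-like cells, while the counts called in each state contrast and in macrophage-like cells stayed within 1.5 times. The 23 were 8 with DESeq2, 14 after thinning to 1500 UMIs and 13 to 17 with a library left out. The effector-like minus naive-like share of -19.0 points was -21.3 by medians over cells, -13.4 with marker gates, -16.4 with the stricter filter and -15.9 at resolution 2. The dividing minus naive-like share of -16.6 was -18.5 by medians and -12.5 with gates, and the macrophage-like minus T-like share of -8.89 was -10.9 after thinning, an alternative added after the data were seen.

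The aPD-L1 minus Ctrl share of -0.547 points was positive with the stricter filter (0.700), with ribosomal protein genes left in the clustering (0.731), at resolution 2 (0.655), without the heat shock led cluster (0.219) and over all kept barcodes (1.74). It was -1.16 without mitochondrial and heat shock genes, -0.412 with close symbols added, -1.48 by medians, -0.841 at resolution 0.5, -0.211 in naive-like cells, -2.92 in effector-like cells and -0.911 at equal weights. The Oxali minus Ctrl share of 1.40 was -0.747 in naive-like and -0.354 in effector-like cells. Under the other alternatives, in the same order where they apply, it was 2.68, 2.17, 2.13, 2.34, 2.60, 0.974, 1.65, 0.915, 1.77 and 0.283, and 1.29 in cells with under 3 macrophage UMIs. The Combo minus Ctrl share of -4.73 kept its sign in each: it was -3.38 with the stricter filter, -3.84 with these genes in the clustering, -4.07 at resolution 2, -3.88 without the heat shock led cluster, -2.05 over all barcodes, -5.60 without mitochondrial and heat shock genes, -5.97 by medians, -5.11 with under 3 macrophage UMIs, -1.19 in naive-like cells, -0.965 in effector-like cells and -1.72 at equal weights. Past 1.5-fold over Ctrl were 0, 0 and 8 members for aPD-L1, Oxali and Combo. Of all genes 2.38%, 1.89% and 7.93% were higher and 3.35%, 3.93% and 3.91% lower at this fold. At 1.2-fold the Oxali count of 10 was 16 without the heat shock led cluster. These were 13 higher and 3 lower, against 19.4% and 23.0% of 4785 genes. The Combo count of 29 was 18 relative to the pool, 16 in naive-like cells on either scale and 18 relative to the pool without the heat shock led cluster, the last 3 added after the data were seen. The naive-like count relative to the pool was 4 higher and 12 lower, against 40.9% and 16.7% of genes. Without the heat shock led cluster the count relative to the pool was 5 higher and 13 lower, against 55.7% and 5.89%. The cause of these changes was not tested. Depth limits the low members: Rps27l held 3 to 16 UMIs in each effector-like sum and 6 to 53 in each naive-like sum. The effector-like cells numbered 20 in Ctrl.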
